A study of Mus musculus with 6 samples.

Results

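The gene set described here is 54 genes of mitosis and chromosome segregation, chosen by name for their known roles: mitotic cyclins and kinases, the chromosomal passenger complex, the spindle checkpoint, kinetochore, condensin, spindle and cytokinesis proteins, with the kinesin motors left out except Cenpe. The rule uses no measured value, but the members were chosen with earlier results of these data known. Of the 54 genes, 52 were found among the 23930 genes of the deposited table, and Ccnb1 and Cks2 were not analysed here. Levels are in RPM, a gene's reads scaled to a common library size. They come from an AmpliSeq panel, in which a PCR product of part of each transcript is sequenced.

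A cell entering mitosis activates Cdk1 bound to cyclin A or B, condenses its chromosomes, and attaches each sister pair to the spindle through the kinetochore. The spindle checkpoint holds back the anaphase-promoting complex until every kinetochore is attached, after which separase splits the sisters and the contractile ring divides the cell. Transcripts of most of these genes peak in late S phase to mitosis and are low in resting cells, so in a tissue they are read mainly from dividing cells. In promoters of this class, CCAAT boxes bind the factor NF-Y, and the cell cycle genes homology region (CHR) binds the DREAM and MuvB complexes, which repress the genes in quiescence and activate them towards mitosis.

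The cells were CD31-positive cells sorted from tumours 2 weeks after LLC cells were injected under the flank skin of C57/Bl6 mice. LLC (Lewis lung carcinoma) is a transplantable tumour line of C57BL origin. CD31, encoded by Pecam1, sits at endothelial junctions and is also found on many leukocytes and on platelets. The 3 BMP9 overexpression libraries (replicates 4, 5 and 6) came from tumours of LLC cells made to overexpress BMP9, a ligand of the bone morphogenetic protein family, and the 3 control libraries (replicates 1, 2 and 3) from tumours of control LLC cells. BMP9 was overexpressed by the injected cells, not by the sorted ones, and the labels give no vector, clone, age or sex of the hosts. They also do not say whether each library came from a separate animal, and the p-values then reflect library-to-library spread alone, which may be technical.

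The libraries held 1974510 to 28380957 reads with BMP9 and 1321762 to 4583428 reads in control, so that 3 reads, taken as the floor, corresponded to 0.106 to 1.52 RPM with BMP9 and to 0.655 to 2.27 RPM in control. Pecam1, which encodes the sorted marker, was present in every library, while other endothelial markers were scarce. It stood at 247, 353 and 311 RPM in BMP9 libraries, against 363, 448 and 532 RPM in control libraries (log2 fold change -0.56, SE 0.27, limma adjusted p = 0.12). The 16 other endothelial markers summed to 34.4 to 53.5 RPM with BMP9 and 24.7 to 62.0 RPM in control. Among them Cdh5, the VE-cadherin of endothelial junctions, was at 3.17 to 8.17 RPM with BMP9 and 4.58 to 13.5 RPM in control, Sox17 had no reads in any control library, and 13 of 16 were below the filter on low values. Of the 3 tested, the VEGF receptor genes Flt1 and Kdr were called higher (log2 fold change 1.83, adjusted p = 0.0058) and lower (-1.32, adjusted p = 0.025), and Cdh5 was not called (-0.56, adjusted p = 0.34). In bulk samples like these, fewer dividing cells and less of these transcripts per dividing cell cannot be told apart.

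RefSeq promoter windows (GRCm38.p6, 250 bases before to 50 after a start site) were found for 41 of the 52 members. CHR hexamers (TTTGAA or TTCGAA, either strand) stood in 33 of their 44 windows (75%), against 13.8% of the windows of all tested genes and 19.2% of all windows. A CCAAT box (CCAAT, either strand) stood in 34 (77.3%), against 36.8% and 37.4%, and both stood in 31 (70.5%), against 5.67% and 7.52%. In these windows 1 pair of a CHR and a CCAAT match shared letters. These shares describe the sequences, and a match is not a bound site.

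The windows below show how the motifs lie, written 5′ to 3′ on the gene's strand with CHR and CCAAT matches in capitals (ATTGG and TTCAAA are matches on the opposite strand). Ccnb2 (chr9:70421505-70421804, minus strand), a B-type cyclin, is shown for its array of CCAAT boxes, which begin at -87, -54 and -21 from the start site and lie between CHR matches at -167 and 5. Cdk1 (chr10:69352863-69353162, minus strand) and Top2a (chr11:99024140-99024439, minus strand) are shown as central genes of the set with several matches. Espl1 (chr15:102296043-102296342, plus strand) is shown because its BMP9 mean was the smallest share of its control mean among the members. Nusap1 (chr2:119618048-119618347, plus strand) is shown because it had the largest log2 change and no match to either motif in this window.
Ccnb2: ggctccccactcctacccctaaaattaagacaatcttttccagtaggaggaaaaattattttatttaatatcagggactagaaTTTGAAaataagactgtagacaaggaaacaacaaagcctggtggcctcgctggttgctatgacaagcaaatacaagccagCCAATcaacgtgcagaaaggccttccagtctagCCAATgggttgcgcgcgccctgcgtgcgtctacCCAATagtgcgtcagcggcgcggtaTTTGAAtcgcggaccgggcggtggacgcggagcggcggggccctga
Cdk1: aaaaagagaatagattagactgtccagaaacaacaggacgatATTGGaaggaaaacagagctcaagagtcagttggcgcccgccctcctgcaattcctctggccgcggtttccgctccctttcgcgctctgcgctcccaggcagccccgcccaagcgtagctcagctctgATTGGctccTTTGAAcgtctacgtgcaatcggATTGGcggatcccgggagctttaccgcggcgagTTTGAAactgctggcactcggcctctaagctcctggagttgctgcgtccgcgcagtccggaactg
Top2a: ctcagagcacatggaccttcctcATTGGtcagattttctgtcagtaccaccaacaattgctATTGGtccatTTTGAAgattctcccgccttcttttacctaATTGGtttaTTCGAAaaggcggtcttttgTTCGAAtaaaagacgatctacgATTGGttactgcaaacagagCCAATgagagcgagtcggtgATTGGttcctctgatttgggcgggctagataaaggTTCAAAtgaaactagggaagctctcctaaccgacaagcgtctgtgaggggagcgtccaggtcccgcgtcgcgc
Espl1: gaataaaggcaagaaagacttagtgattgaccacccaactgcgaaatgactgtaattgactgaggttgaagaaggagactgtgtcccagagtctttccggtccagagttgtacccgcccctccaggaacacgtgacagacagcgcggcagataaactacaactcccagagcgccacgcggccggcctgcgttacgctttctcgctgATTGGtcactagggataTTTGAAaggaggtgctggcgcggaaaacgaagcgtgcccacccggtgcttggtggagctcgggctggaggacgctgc
Nusap1: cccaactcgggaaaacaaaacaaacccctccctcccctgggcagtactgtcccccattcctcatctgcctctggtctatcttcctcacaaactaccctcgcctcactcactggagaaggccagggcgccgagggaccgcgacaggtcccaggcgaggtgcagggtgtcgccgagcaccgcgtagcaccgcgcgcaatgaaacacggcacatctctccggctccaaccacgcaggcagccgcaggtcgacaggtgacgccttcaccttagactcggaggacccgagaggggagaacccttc

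**Figure D1:**
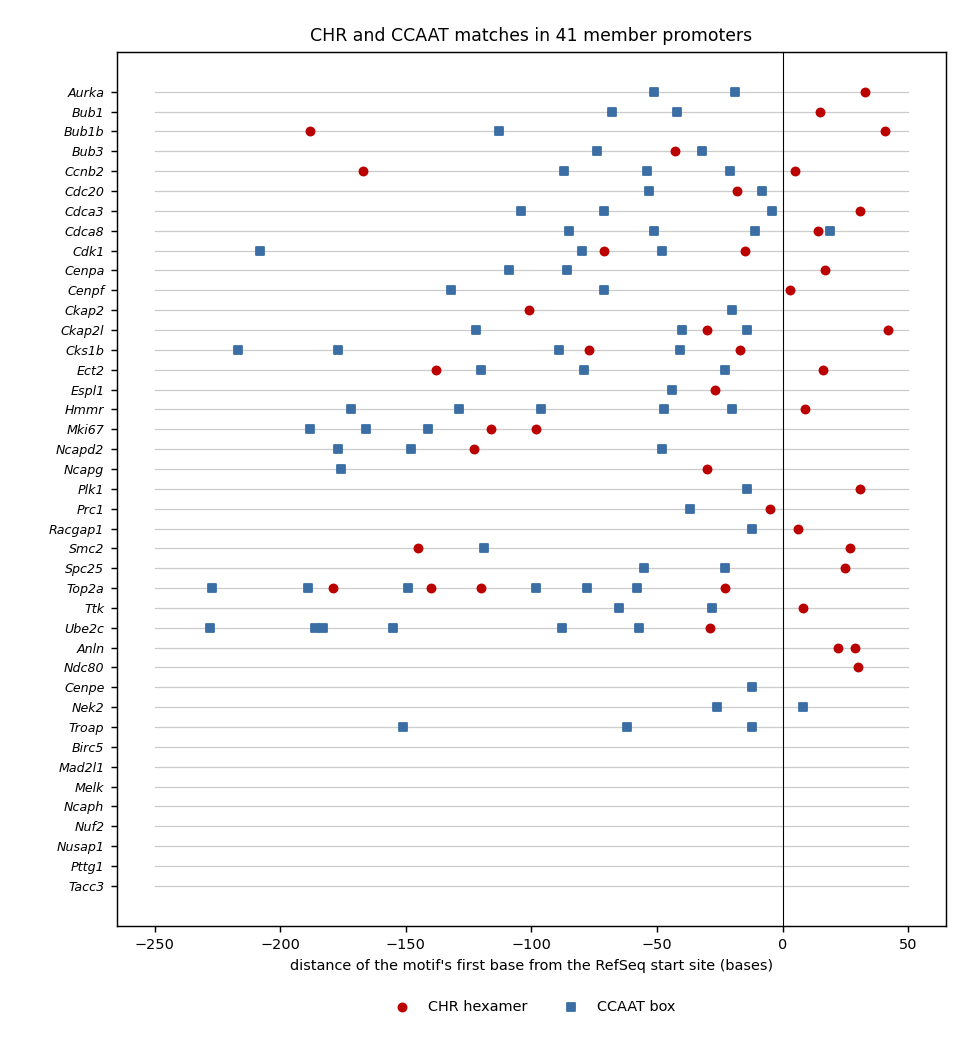
Positions of CHR hexamers (circles) and CCAAT boxes (squares) in promoter windows of 41 members, 1 window per gene, in bases from the RefSeq start site (0 on the axis). Over all 44 windows the median position is -71 for CCAAT (quartiles -131 and -37) and -17 for CHR (-100 and 16), and 8 genes at the bottom have neither.

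The members' changes were set beside their motif content. On the log2(RPM + 1) scale the 29 tested members with a CHR in a window had a median difference of -2.56 (BMP9 overexpression minus control), and the 10 tested members without it -2.85. These medians are given as description, with no test. The 3 members that differed least were Anln, with 2 CHR matches and no CCAAT box, Bub3, with both motifs, and Pttg1, with neither.

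The mitosis genes were lower in BMP9 overexpression libraries almost throughout the set. Of 49 members that passed the filter (at least 5 RPM in at least 3 libraries), 47 were called lower and 0 higher by limma-trend at a Benjamini-Hochberg adjusted p of 0.05 over all genes, and the members not called were Anln and Pttg1. No tested member had a positive log2 fold change, and edgeR and DESeq2 on recovered reads also called 0 higher. Across all tested genes, 22.5% were called lower and 12.7% higher (2130 and 1200 genes), or 1383 and 1629 genes after TMM scaling, and 1367 were lower without control replicate 1. The median log2 fold change of the tested members was -2.56 (quartiles -3.09 and -2.13), beside -0.24 for all tested genes (quartiles -0.82 and 0.36), which was 0.00 after TMM scaling. Of the tested members, 9 reached 5 RPM only in control libraries and so passed through the group where they were high. They were Foxm1, Pbk, Bub1, Ndc80, Spc25, Espl1, Ncaph, Tpx2 and Ckap2. All were called lower, but the filter had set their direction.

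Among the 47 called members, 46 were over 2-fold lower, 39 over 4-fold lower and 14 over 8-fold lower on the log2(RPM + 1) scale. Of all tested genes, 18.1%, 4.31% and 0.92% were called past these folds. The member counts include the 9 that passed the filter through control alone. Pbk, Bub1, Spc25, Espl1, Ncaph and Tpx2 of these are among those over 8-fold lower. In RPM, the BMP9 mean was between 2.19% and 67.3% of the control mean over the 52 members, with a median of 15.3%. All 3 BMP9 libraries lay below all 3 control libraries for 50 of 52 members, a pattern seen in 31.2% of all tested genes. The 3 members below the filter were Cdc25c, Ttk and Troap, and they had the same order of groups.

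**Figure D2:**
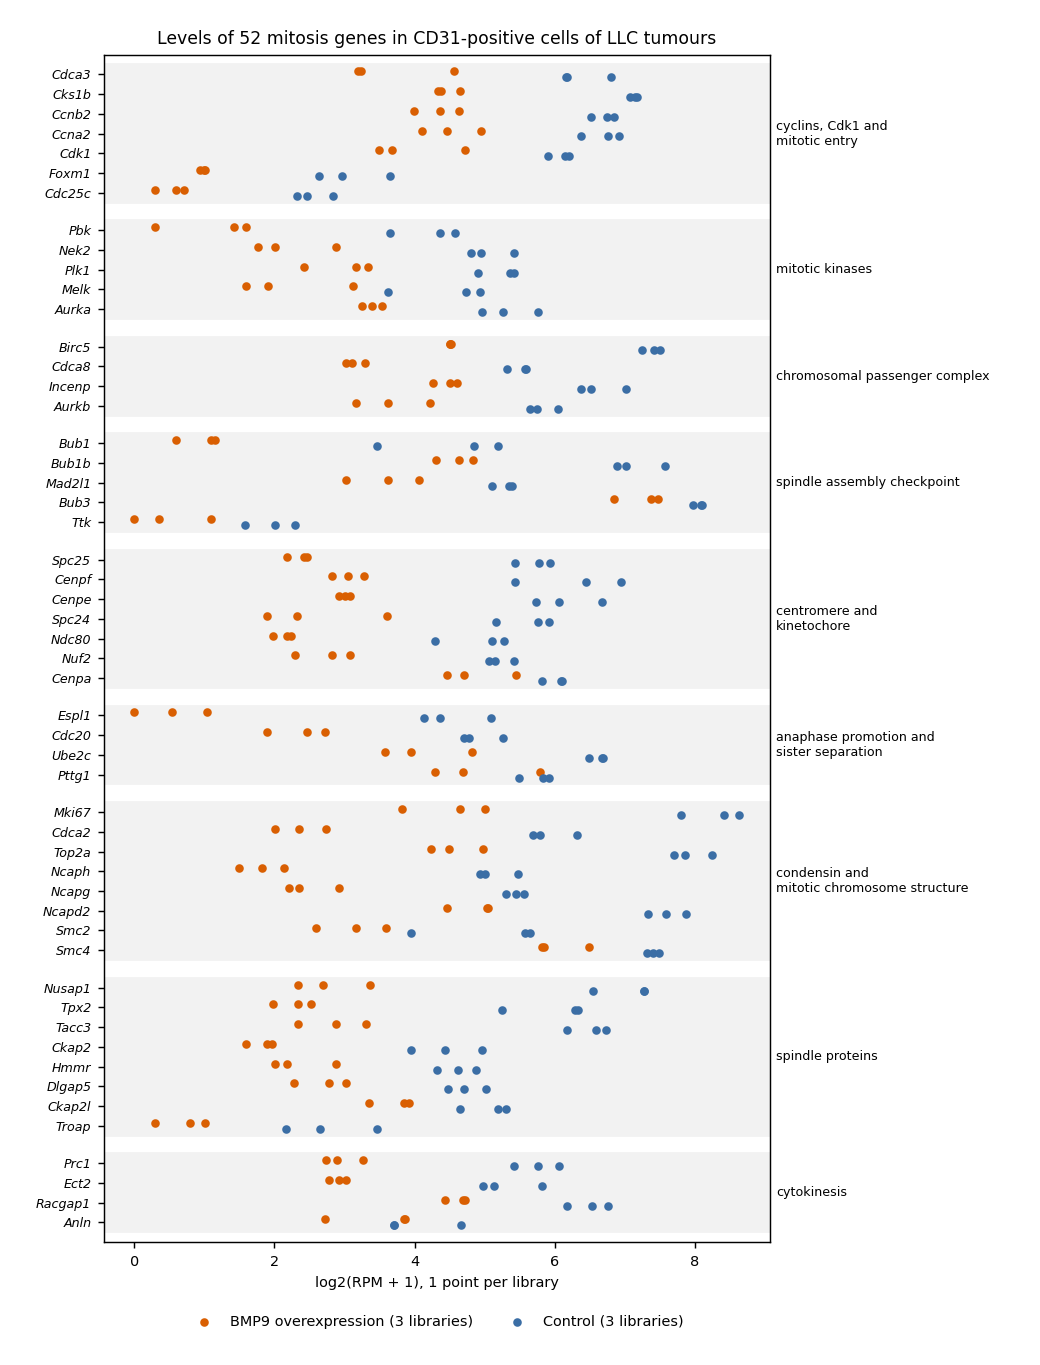
Level of each of the 52 members in each library, as log2(RPM + 1), with 1 point per library, BMP9 overexpression drawn above Control in each row and members grouped by role. The groups overlap for Pttg1 and Anln, and for the other 50 members every BMP9 point lies left of every Control point.

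Mitotic entry genes fell without exception among the 6 tested, with a median log2 fold change of -2.28. Cdk1, the kinase that drives mitosis (chromosome 10, 69335146 to 69352938, mm10), had 25.3, 10.2 and 11.8 RPM in BMP9 replicates 4, 5 and 6, against 70.0, 59.0 and 73.0 RPM in control replicates 1, 2 and 3. Replicate 4 was the highest of the BMP9 libraries and still lay well below the lowest control. The log2 fold change was -2.13 (SE 0.35, adjusted p = 0.00031). Its cyclin partners moved by like amounts. Ccna2, the cyclin A of S phase and early mitosis, averaged 22.4 ± 6.90 RPM with BMP9 and 103 ± 19.4 RPM in control, and Ccnb2 averaged 19.4 ± 4.42 and 103.7 ± 11.7 RPM (SD, n = 3 each). Ccnb1, the main B-type cyclin, was not analysed here, so the B cyclins could not be compared. Pseudogene copies of Ccnb2 and Aurkb are annotated in the mouse genome, and whether the amplicons tell them apart is not given in the sources used here.

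Cdca3, a substrate adaptor that promotes mitotic entry, had the largest change of this group on the log2(RPM + 1) scale. Its levels were 8.10, 22.7 and 8.46 RPM in BMP9 libraries, against 70.5, 110.5 and 71.5 RPM in control libraries (log2 fold change -2.72, SE 0.38, adjusted p = 8.8e-05). Cks1b, a small Cdk-binding subunit, was even across libraries, with 19.8, 24.04 and 19.1 RPM in BMP9 libraries against 141, 134 and 144 RPM in control (-2.68, SE 0.27, adjusted p = 8e-06). Its paralogue Cks2 was not analysed here. Foxm1, the transcription factor that activates many of the other members, was close to the floor and had the smallest change of the group on this scale. It had 1.013, 0.907 and 0.987 RPM in BMP9 libraries, from 2, 4 and 28 reads, against 5.24, 6.81 and 11.5 RPM in control libraries (-2.11, SE 0.41, adjusted p = 0.0011). The rank depends on the scale. With edgeR on recovered reads Foxm1 had the largest change of the tested genes of the group, -2.70, beside -2.47 for Cks1b and -2.42 for Cdca3. Cdc25c, the phosphatase that activates Cdk1, stayed below the filter with 0.506, 0.227 and 0.634 RPM against 6.11, 4.54 and 4 RPM in control.

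All 5 mitotic kinases outside the cyclin and passenger complexes fell, with log2 fold changes of -3.09 to -1.94. Pbk, a kinase of mitotic cells, had the largest change, with 2.03, 0.227 and 1.69 RPM in BMP9 libraries, against 22.9, 19.7 and 11.5 RPM in control libraries (-3.09, SE 0.44, adjusted p = 9.3e-05). Aurka, the Aurora kinase of centrosomes and spindle poles, had the smallest, with 10.6, 9.53 and 8.53 RPM against 53.5, 30.3 and 37.5 RPM (-1.94, SE 0.33, adjusted p = 0.0004). Plk1, the Polo kinase of mitotic entry and exit, changed by -2.26, Nek2, a centrosome kinase, by -2.84, and Melk by -2.22. Melk had the closest groups of these, at 7.71 RPM in the highest BMP9 library and 11.3 RPM in the lowest control.

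The chromosomal passenger complex corrects faulty attachments and later guides the division furrow. Its 4 members fell by similar amounts, between -2.87 and -2.14. Birc5, the survivin subunit (chromosome 11, 117849251 to 117855743), had 21.8, 21.8 and 21.9 RPM in BMP9 libraries, against 180.4, 150.6 and 169.5 RPM in control libraries. The BMP9 libraries were nearly identical for this gene, and the log2 fold change was -2.87 (SE 0.26, adjusted p = 4.6e-06). Aurkb, the Aurora kinase of the complex, had 17.7, 7.94 and 11.3 RPM against 65.2, 49.2 and 52.5 RPM in control (-2.14, SE 0.34, adjusted p = 0.00023). The scaffold Incenp changed by -2.18 and the targeting subunit Cdca8 by -2.36. Side by side, the paralogues Aurka and Aurkb had changes of -1.94 and -2.14, with 95% confidence intervals of -2.64 to -1.24 and -2.86 to -1.43.

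Of the checkpoint genes 4 of 4 tested were called lower, with log2 fold changes from -3.55 to -0.82. Bub1, a checkpoint kinase (chromosome 2, 127801122 to 127831865), had 0.506, 1.13 and 1.23 RPM in BMP9 libraries, from 1, 5 and 35 reads, against 27.9, 35.6 and 10.001 RPM in control libraries (-3.55, SE 0.46, adjusted p = 4e-05). Control replicate 3 was the lowest control by a wide margin. Its paralogue Bub1b, the BubR1 inhibitor of the anaphase-promoting complex, had 18.7, 27.4 and 23.7 RPM against 189, 118 and 128 RPM (-2.57, SE 0.29, adjusted p = 1.9e-05). The intervals of this pair, -4.52 to -2.59 and -3.20 to -1.94, overlap.

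Bub3, the WD-repeat partner that brings both to the kinetochore (chromosome 7, 131560222 to 131571895), changed least in this group. It had 114, 164 and 177 RPM in BMP9 libraries, against 273, 249.7 and 270.03 RPM in control libraries, and the groups did not overlap. The log2 fold change of -0.82 (SE 0.26, adjusted p = 0.025) was -0.57 with TMM scaling (adjusted p = 0.11), which ended the call. The call was also lost without control replicate 1 (adjusted p = 0.089), control replicate 3 (0.076) or BMP9 replicate 4 (0.059). On recovered reads neither edgeR (-0.54, adjusted p = 0.14) nor DESeq2 (-0.55, adjusted p = 0.12) called it, nor did limma without the filter. Mad2l1, the MAD2 protein that binds Cdc20, changed by -1.71 (SE 0.34). Ttk, the MPS1 kinase at the top of the checkpoint, was below the filter with 0, 1.13 and 0.282 RPM against 3.93, 3.03 and 2 RPM in control.

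Kinetochore genes fell together, with 7 of 7 called lower and a median of -3.01. Spc25, a subunit of the NDC80 complex that grips spindle microtubules, led with 3.55, 4.54 and 4.37 RPM in BMP9 libraries, against 59.8, 53.7 and 42.0 RPM in control libraries (-3.35, SE 0.32, adjusted p = 6.1e-06). The other subunits of that complex, Spc24, Ndc80 and Nuf2, changed by -3.01, -2.75 and -2.48. Cenpf and the motor protein Cenpe, which both load onto kinetochores in mitosis, changed by -3.22 and -3.15. Spc24 differed among BMP9 libraries, with 11.1 RPM in replicate 4 and 2.72 and 3.98 RPM in replicates 5 and 6.

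Cenpa, the histone H3 variant that marks the centromere at all times, had the smallest change of the kinetochore group. It had 42.5, 21.1 and 24.98 RPM in BMP9 libraries, against 67.2, 68.1 and 55.5 RPM in control libraries (-1.14, SE 0.32, adjusted p = 0.012). BMP9 replicate 4 was again the highest of its group. Against replicate 4 alone, within the same run time stamp as the controls, the change was -0.56 (adjusted p = 0.25), and the call was also lost without control replicate 1 (-1.10, adjusted p = 0.052).

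Of the genes of anaphase promotion and sister separation, 3 of 4 fell. Espl1, the separase that cleaves cohesin (chromosome 15, 102296266 to 102324357), had 0, 0.454 and 1.06 RPM in BMP9 libraries, from 0, 2 and 30 reads, against 32.9, 16.6 and 19.5 RPM in control libraries (-4.00, SE 0.42, adjusted p = 1e-05). Its BMP9 mean was 2.19% of its control mean. Cdc20, the activator of the anaphase-promoting complex, changed by -2.56 (SE 0.36), and Ube2c, its ubiquitin-conjugating enzyme, by -2.50 (SE 0.34).

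Pttg1 encodes securin, the inhibitor of separase, and did not pass the test. It had 54.2, 18.6 and 24.9 RPM in BMP9 libraries, against 59.3, 56.0 and 44.0 RPM in control libraries (-0.82, SE 0.36, adjusted p = 0.092). The groups overlapped through BMP9 replicate 4 alone. Without that library the change was -1.25 (adjusted p = 0.0043), and within the earlier run time stamp, where replicate 4 is the sole BMP9 library, it was 0.04 (adjusted p = 0.95). Securin and separase, whose proteins bind each other, thus had changes of -0.82 (95% CI -1.60 to -0.05) and -4.00 (-4.89 to -3.11).

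Chromosome structure genes were all called lower, 8 of 8, with a median of -3.13. Mki67, the Ki-67 protein that coats mitotic chromosomes and is the usual stain for dividing cells (chromosome 7, 135689784 to 135716361), had 13.2, 24.04 and 31.2 RPM in BMP9 libraries, against 396, 340.5 and 222 RPM in control libraries. The lowest control was still several times the highest BMP9 library. The log2 fold change was -3.79 (SE 0.34, adjusted p = 3.6e-06). Top2a, the topoisomerase that untangles sister chromatids, had 30.4, 21.5 and 17.9 RPM against 302, 232 and 207 RPM (-3.37, SE 0.29, adjusted p = 3.3e-06).

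The log2 fold changes of the condensin subunits among the members ran from -3.32 to -1.35. Ncaph, Ncapg and Ncapd2, the subunits particular to condensin I, changed by -3.32 (95% CI -4.07 to -2.56), -2.94 (-3.66 to -2.23) and -2.74 (-3.35 to -2.13). Smc4 and Smc2, the ATPases that condensin I shares with condensin II, changed by -1.35 (-1.94 to -0.76) and -1.93 (-2.89 to -0.98). Smc4, the smallest change of the group, had 56.7, 89.1 and 55.2 RPM in BMP9 libraries, against 168, 178 and 159 RPM in control libraries (SE 0.28, adjusted p = 0.0016). Of the condensin II subunits, which are not members, Ncapd3 (-1.0) and Ncapg2 (-1.20) were called, but neither after TMM scaling, while Ncaph2 (-0.72) did not pass the test. The difference between subunits was not tested.

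Spindle proteins held the largest change of the set on the log2(RPM + 1) scale. With edgeR on recovered reads, Espl1 of the anaphase group changed more (-4.60) than the spindle gene Nusap1 (-4.04). Nusap1, which bundles microtubules near chromosomes (chromosome 2, 119618298 to 119651244), had 4.05, 5.44 and 9.27 RPM in BMP9 libraries, against 154.5, 154.3 and 92.0 RPM in control libraries (-4.24, SE 0.35, adjusted p = 2.4e-06). Tpx2, the activator of Aurka, and Tacc3, a spindle-fibre crosslinker, changed by -3.67 and -3.66. Ckap2, Hmmr and Dlgap5, further microtubule-associated proteins, changed by -2.63, -2.25 and -2.04. Ckap2l had the smallest change, with 14.2, 13.4 and 9.23 RPM against 38.4, 35.6 and 24.003 RPM (-1.34, SE 0.33, adjusted p = 0.006), and within the earlier run time stamp it was -1.12 (adjusted p = 0.066). Troap was below the filter with 1.013, 0.227 and 0.74 RPM against 10.04, 5.30 and 3.5 RPM in control.

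Of 4 cytokinesis genes, 3 fell. Prc1, which bundles the central spindle, had 8.61, 5.67 and 6.45 RPM in BMP9 libraries, against 65.7, 41.6 and 53.0 RPM in control libraries (-2.78, SE 0.33, adjusted p = 2.3e-05). Ect2, the exchange factor that switches on RhoA at the division plane, changed by -2.40, and Racgap1, its partner in centralspindlin, by -1.88. Anln, the anillin scaffold of the contractile ring, had the smallest change of all members, with 5.57, 13.6 and 13.4 RPM against 24.2, 12.1 and 12.0 RPM (-0.55, SE 0.41, adjusted p = 0.32). Its groups overlapped, since BMP9 replicates 5 and 6 lay above control replicates 2 and 3.

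**Figure D3:**
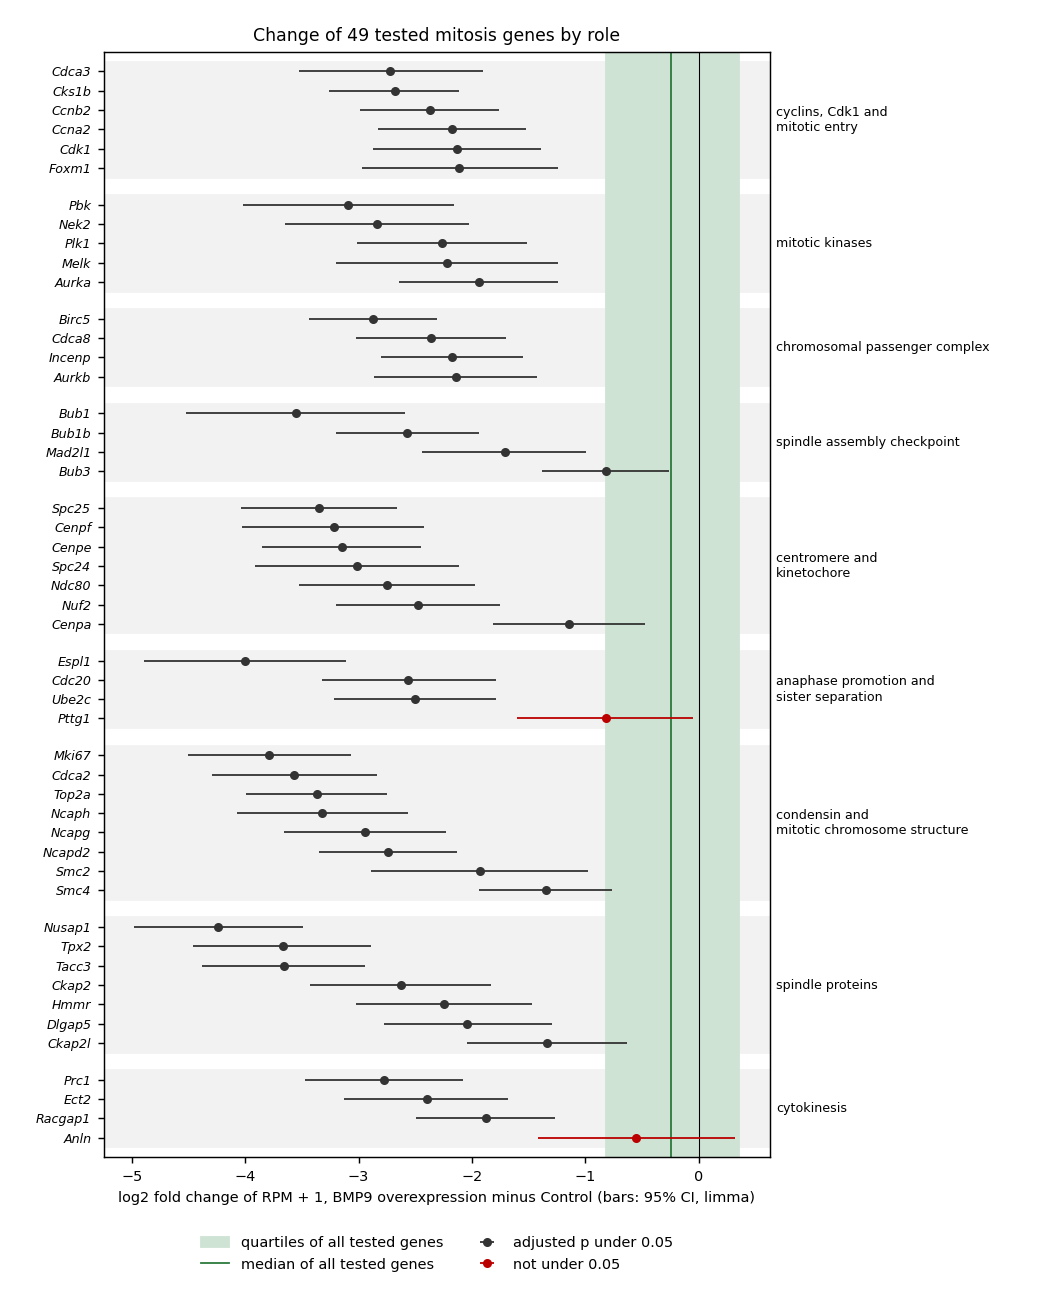
Log2 fold change of RPM + 1 (BMP9 overexpression minus Control) for the 49 tested members, by role, with 95% confidence intervals from limma. The shaded band spans the quartiles of all tested genes (-0.82 to 0.36). Anln and Pttg1, in red, did not pass the test, and Bub3 is the called member closest to 0.

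The libraries of a group did not differ evenly across the set. BMP9 replicate 4 was the highest of its group for 22 members and the lowest for 19, and its summed member level of 752 RPM lay between 760.2 and 706 RPM in replicates 5 and 6. In control, replicate 1 was the highest for 37 members and replicate 3 the lowest for 34, with sums of 4407, 3737 and 3250 RPM in replicates 1, 2 and 3. BMP9 replicate 4 was below all controls for 51 of 52 members, and replicates 5 and 6 for 51 and 51. The share of all tested genes with this order was not computed for single libraries. It is at least the 31.2% seen for all 3 BMP9 libraries together. Replicate 4 carries the run time stamp of the 3 controls, whereas replicates 5 and 6 carry a later one with no control. Against replicate 4 alone, with the lone library assumed to vary like the controls, 45 members were called lower with a median of -2.48, beside 17.6% of all tested genes called lower.

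Other genes of cell division, in lists that do not overlap the members, were called lower to different extents, beside 22.5% of all tested genes. Of 11 tested mitotic kinesins 11 fell (median -2.49), with the smallest p for Kif4 (-3.74, SE 0.40) and Kif22 (-3.31, SE 0.35), motors that bind chromosome arms. Among DNA replication genes 20 of 24 fell (median -2.29), with the smallest p for Mcm7, a subunit of the replicative helicase (-2.95, SE 0.27), and the ligase Lig1 (-3.41, SE 0.34). Of other centromere and kinetochore genes 19 of 25 fell (median -1.62), among them Casc5, the KNL1 scaffold (-3.74, SE 0.40), and Cenpm (-3.24, SE 0.36). Of other entry and exit regulators 9 of 15 fell (median -1.79), among them Ccnf, cyclin F (-2.88, SE 0.37), and Pkmyt1, a kinase that inhibits Cdk1 (-2.63, SE 0.34). As with the members, genes of these lists could pass the filter through control libraries alone, which sets their direction. Such genes were not counted apart. Median levels of the kinesins were 3.70 to 6.33 RPM in BMP9 libraries and 30.6 to 51.2 RPM in control. Those of the other centromere and kinetochore genes were 3.55 to 4.02 RPM and 18.1 to 24.2 RPM.

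In the spindle and centrosome list 13 of 21 were called lower and 2 higher (median -1.34). Stil, a centriole assembly protein, changed by -3.35 and Fam64a by -3.39. The genes called higher were Ndel1, a dynein regulator, with 260, 168 and 159 RPM in BMP9 libraries, against 64.8, 65.1 and 75.01 RPM in control libraries (1.48, SE 0.28, adjusted p = 0.00086), and Tacc1 (0.86, SE 0.30, adjusted p = 0.037). Both have roles outside mitosis.

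In the cohesin list 8 of 15 fell (median -0.94). Those with the smallest p were Sgol1, the shugoshin that protects cohesin at centromeres (-3.01, SE 0.40), and Cdca5, sororin (-2.66, SE 0.37). Among other cytokinesis genes 2 of 9 fell, a share near that of all tested genes, Cit, the citron kinase (-3.44, SE 0.33), and Cep55, the midbody protein of abscission (-2.42, SE 0.37). Of the anaphase-promoting complex and its cofactors 2 of 16 fell, a share below that of all tested genes (median -0.26), Ube2s (-1.28, SE 0.29) and Anapc5 (-1.27, SE 0.30). No gene of these 3 lists was called higher.

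**Figure D4:**
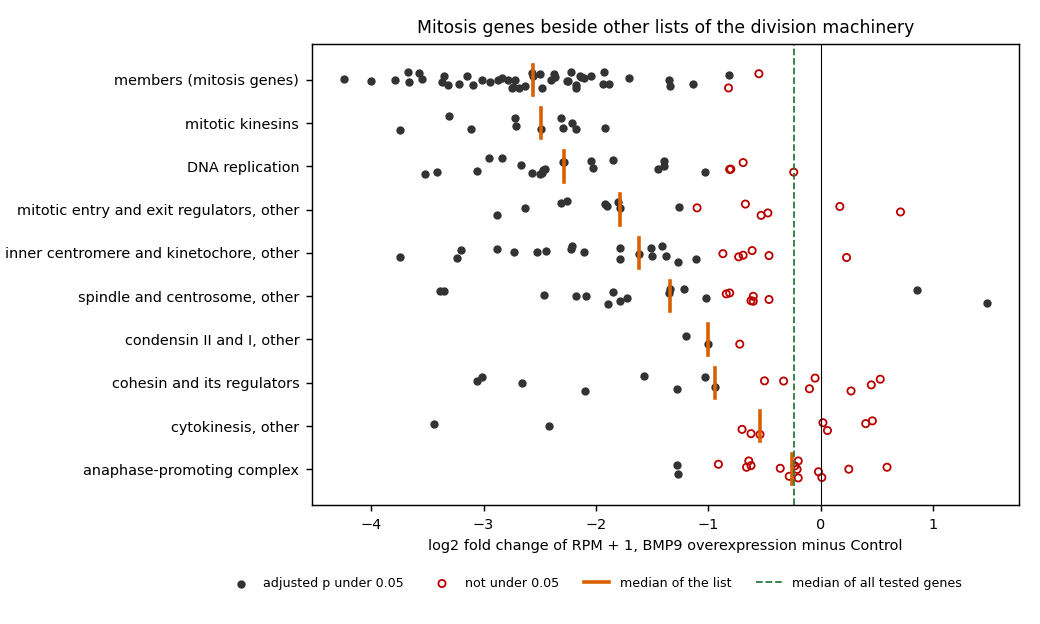
Log2 fold change of RPM + 1 (BMP9 overexpression minus Control) of every tested gene in the set of members and in 9 other lists of the division machinery, 1 point per gene, with list medians as vertical bars. Medians run from -2.56 for the members to -0.26 for the anaphase-promoting complex, and the dashed line is the median of all tested genes, -0.24.

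Markers of leukocytes moved in the same libraries. All 15 T and NK cell markers were called lower, with sums of 754 to 1336 RPM in BMP9 libraries and 5531 to 6046 RPM in control libraries and no marker at 0. Among them Cd3e, a T cell receptor subunit, changed by -2.41 (SE 0.26). Of 14 measured macrophage and monocyte markers 12 were tested and called higher, with sums of 18964 to 25066 RPM with BMP9 and 4787 to 7359 RPM in control, where C1qa had no reads. Among them Itgam, the CD11b integrin of myeloid cells, changed by 3.21 (SE 0.31). Of the neutrophil and the platelet and megakaryocyte markers, all tested (4 of 4 and 3 of 3) were called higher. Of those measured, 6 of 10 and 3 of 6 were below the filter. Median levels of the 2 lists in control libraries were only 0.38 to 1.09 RPM and 0.55 to 1.135 RPM. Markers could thus pass the filter through BMP9 libraries alone, which sets their direction. None of 4 tested B cell markers was called. Of 8 dendritic cell markers 2 were called lower, a share near the 22.5% of all tested genes. Of 3 tested fibroblast and mural cell markers 1 was lower and 2 were higher. Keratins and adhesion genes of epithelial-type tumour cells summed to 185 to 284 RPM with BMP9 and 169 to 193 RPM in control, with 1 of 3 tested called higher and Krt19 without reads in control. Immediate-early and heat shock genes summed to 4979 to 6820 RPM with BMP9 and 3936 to 4982 RPM in control. Of these 5 of 11 were called higher, beside 12.7% of all tested genes. The part of these changes in the fall of the mitosis genes was not tested.

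Set against the T and NK cell markers of the same library, the summed mitosis genes overlapped between groups. Their sum was 56.3%, 65.6% and 93.7% of the T and NK marker sum in BMP9 replicates 4, 5 and 6, and 75.8%, 61.8% and 58.8% in control replicates 1, 2 and 3. Relative to the macrophage and monocyte marker sum it was 2.82% to 4.01% with BMP9 and 44.2% to 78.1% in control, without overlap. Against the endothelial marker sum it was 1420.3% to 2183% with BMP9 and 6023% to 17876% in control, also without overlap. These ratios are descriptions with no test, and since amplicon yield differs between genes only their order between libraries can be read.

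**Figure D5:**
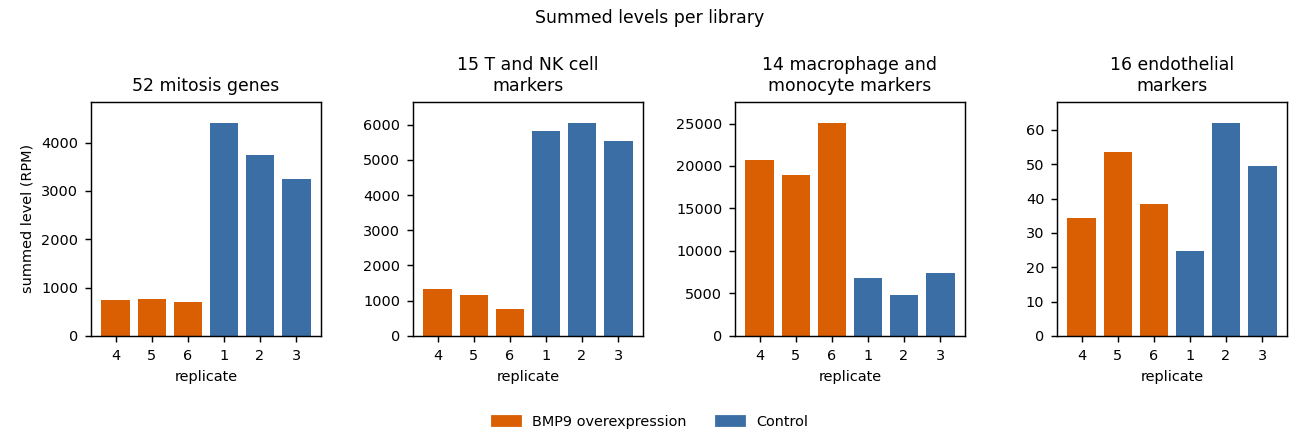
Summed level in RPM per library of the 52 mitosis genes and of the T and NK cell, macrophage and monocyte, and endothelial marker lists, with 1 bar per library and a separate axis from 0 in each panel. The mitosis genes and the T and NK markers are lower in all 3 BMP9 libraries, the macrophage markers are higher in all 3, and the endothelial sums overlap between the groups.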

How the data were processed

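Sorted CD31-positive cells were profiled with an Ion AmpliSeq mouse transcriptome kit, per the labels' protocols. The submitters' processing notes name the build mm10, and how reads were aligned, counted and filtered is not stated there. The authors deposited RPM values, and no other unit was used. Whole reads were recovered from the RPM steps for 100% of nonzero values within 0.05 reads, and edgeR on these called 1421 genes lower and 1693 higher. Floors of 3 reads cover counting error only, since the PCR reads carry no molecular identifiers.

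Genes reaching 5 RPM in 3 or more libraries were tested on log2(RPM + 1) with limma-trend, 3 BMP9 overexpression against 3 control libraries, at 0.05 on the adjusted p over all tested genes (limma 3.58.1 in R 4.3.3). Fold changes on this scale understate changes of low genes. Libraries of a group differed beyond sampling noise (the lowest chi-square was 9.1 times its degrees of freedom), and each was kept as 1 replicate. Alternatives were other pseudocounts, filters and scalings, array weights, the run time stamp, single libraries left out, thinned reads, and edgeR 4.0.16 and DESeq2 1.42.0 on recovered reads. The procedure was tested on simulated data. Members and lists were chosen with earlier results of these data known. Described in full are the members with the largest and the smallest change in each role, those not called or below the filter, Mki67, Top2a, Cdk1 and paralogous pairs, and of each further list the 2 called genes with the smallest p and all called higher. Gene coordinates are GENCODE M21 (mm10), and promoters are RefSeq.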

Additional observations from a re-analysis of the deposited data

How the results depend on the processing

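The number of members called lower stayed between 35 and 48 under every alternative, none was called higher, and 35 was the count when genes averaging below 20 RPM were dropped, since fewer members were then tested. Their median log2 fold change was -1.99 with a pseudocount of 5, -2.32 with TMM factors and -2.27 after quantile normalization, and -2.65 to -2.38 when single libraries were left out. Over all genes, 1383 were called lower with TMM factors, 3351 with array weights, and 1367 to 2312 without single libraries. The 2 condensin II genes called lower were 0 with TMM factors. Pttg1 turned to 0.04 within the earlier stamp and when the stamp was a covariate, which is the same estimate. The later stamp holds no control, so in both fits the log2 fold change compares BMP9 replicate 4 with the controls. They are counted as separate alternatives below. Of 868 values of single members under 18 alternatives, 850 kept their direction and side of the threshold, 13 lost a call and 3 gained it. Calls were lost for Bub3, Cenpa, Ckap2l and Smc2 (adjusted p = 0.065 without the filter) and gained for Pttg1 and Anln. For Anln the call came with the stamp as a covariate (-1.31), and the same estimate within the earlier stamp was not called. The cause of these shifts was not tested. No paired analysis was possible because the groups share no replicate numbers. At 1321762 reads in the shallowest library, control replicate 2, 3 reads correspond to 2.27 RPM. In the deepest, BMP9 replicate 6, they correspond to 0.106 RPM, so equal low values rest on more reads there.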
